A study of Mus musculus with 6 samples.

Results

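Serpins are a family of protease inhibitors and related carrier proteins, and 42 of their genes were counted here in the livers of mouse pups. Members were the gene entries whose symbol begins with Serpin, a clade letter from a to i and a number, with at least 10 reads summed over the 6 libraries. Such a symbol was carried by 63 of the 24489 RefSeq gene entries, 21 of them had fewer than 10 reads, and 13 of those had no read. At the threshold Serpine3 was kept with 11 reads, while Serpinb7 and Serpinb1b were left out with 6 reads each. Polyadenylated RNA came from a lobe of untreated livers at postnatal day 10. There were 3 libraries of Jag1Ndr/Ndr pups, homozygous for the Nodder (Ndr) missense allele of the Notch ligand Jag1, and 3 libraries of Jag1+/+ pups, all on a C3H/C57bl6J background. The allele is carried in every cell, and the labels do not say whether each library is a separate animal, so the p-values measure the spread between libraries, which may be partly technical.

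An inhibitory serpin presents an exposed loop as bait to a serine or cysteine protease. Cleavage of the loop springs the serpin into a new shape that traps the protease in a covalent complex. The liver secretes most plasma serpins, among them inhibitors of elastase, thrombin, plasmin and complement C1, and also serpins that have lost inhibition and carry hormones. Clade B serpins lack a classical signal peptide and act mostly inside cells, where many of them protect against granule and lysosomal proteases. In mice the genes of alpha-1-antitrypsin (Serpina1) and alpha-1-antichymotrypsin (Serpina3) have multiplied into clusters of paralogs on chromosome 12.

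Depth ranged from 12992592 to 59653111 reads on gene entries per library. On these totals 3 reads, the number that a count of 0 still allows, come to between 0.0503 and 0.231 CPM (counts scaled to library size). This floor covers counting error only and is before TMM scaling, whereas all other CPM here are relative to the TMM-scaled library size. Jag1 itself averaged 4.84 ± 1.59 CPM in Jag1Ndr/Ndr and 5.96 ± 0.806 CPM in Jag1+/+ livers (SD, n = 3 each; edgeR adjusted p = 0.638), and a missense allele need not change its transcript level, so this does not check the labels. By Xist and Y-linked reads, Jag1Ndr/Ndr replicates 2 and 3 and Jag1+/+ replicate 1 were female and the other libraries male. Beside the marker counts that follow, 4.73% of all genes tested were higher and 2.90% lower in Jag1Ndr/Ndr (edgeR adjusted p under 0.05). Hepatocyte markers summed to between 104701 and 185066 CPM in Jag1Ndr/Ndr and between 220280.1 and 226813 CPM in Jag1+/+ livers, with 2 of 9 markers (Ttr and Cyp2e1) lower and none at 0 reads. Neutrophil markers summed to between 1083 and 2411 CPM in Jag1Ndr/Ndr and between 626 and 758 CPM in Jag1+/+ livers, with 7 of 10 higher and none at 0. Macrophage markers summed to between 1261 and 2178 CPM in Jag1Ndr/Ndr and between 600.4 and 1020.1 CPM in Jag1+/+ livers, with 2 of 9 higher and none at 0. Of the cholangiocyte markers 3 of 9 tested were higher (sums of 65.0 to 173 CPM in Jag1Ndr/Ndr and 95.7 to 139 CPM in Jag1+/+ livers, none at 0), and of the erythroid markers 2 of 5 (178 to 459 CPM in Jag1Ndr/Ndr and 111 to 189 CPM in Jag1+/+ livers, 2 entries at 0). Endothelial markers (1 of 7 higher, Vwf) summed to 396 to 493 CPM in Jag1Ndr/Ndr and 444 to 489.5 CPM in Jag1+/+ livers, and stellate cell and fibroblast markers (1 of 9 lower, Reln) to 805 to 1245 CPM in Jag1Ndr/Ndr and 1018 to 1188 CPM in Jag1+/+ livers. Megakaryocyte and platelet markers (1 of 7 higher, Vwf again) summed to 98.5 to 164 CPM in Jag1Ndr/Ndr and 37.4 to 83.8 CPM in Jag1+/+ livers, and none of these markers was at 0 reads. In such bulk tissue fewer cells of a type and less RNA per cell cannot be told apart.

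Among the promoters of the members, windows of bases before the RefSeq start (GRCm38.p6) could be matched for 32 of 42. The windows of Serpina3f, Serpina3g and Serpina3i are shown because these neighbours on chromosome 12 were all higher in Jag1Ndr/Ndr livers, beside that of Serpina3n, their most abundant relative, which did not pass the test. The start is that of the transcript in the RefSeq table, which for Serpina3i and Serpina3n lies inside the annotated gene. Each runs 5′ to 3′ over 250 bases up to the base before the start, on the plus strand, and capitals mark TTCNNNGAA, the core letters that STAT factors bind, which read the same on both strands. The windows are chr12:104214294-104214543 for Serpina3f, chr12:104235897-104236146 for Serpina3g, chr12:104262872-104263121 for Serpina3i and chr12:104406458-104406707 for Serpina3n.
Serpina3f: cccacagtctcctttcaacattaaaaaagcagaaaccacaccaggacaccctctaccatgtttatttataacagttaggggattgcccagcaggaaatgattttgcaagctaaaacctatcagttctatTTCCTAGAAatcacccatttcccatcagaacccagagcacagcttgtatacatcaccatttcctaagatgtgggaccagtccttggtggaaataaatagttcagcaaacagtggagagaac
Serpina3g: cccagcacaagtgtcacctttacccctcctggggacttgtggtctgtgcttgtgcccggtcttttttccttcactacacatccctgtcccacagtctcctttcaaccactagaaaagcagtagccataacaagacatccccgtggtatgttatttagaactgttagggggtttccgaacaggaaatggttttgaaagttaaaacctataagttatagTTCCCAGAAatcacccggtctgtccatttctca
Serpina3i: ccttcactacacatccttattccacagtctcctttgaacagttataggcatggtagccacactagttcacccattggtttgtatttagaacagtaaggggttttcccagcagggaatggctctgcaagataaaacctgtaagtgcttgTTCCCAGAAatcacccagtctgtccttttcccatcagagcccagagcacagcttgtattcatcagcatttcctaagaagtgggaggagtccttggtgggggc
Serpina3n: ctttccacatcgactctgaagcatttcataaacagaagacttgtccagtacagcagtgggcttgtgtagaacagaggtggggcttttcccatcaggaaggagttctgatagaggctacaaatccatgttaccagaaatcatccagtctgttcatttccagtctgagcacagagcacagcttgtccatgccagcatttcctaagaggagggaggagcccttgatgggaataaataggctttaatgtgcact
The capitals begin 121, 33 and 102 bases before the start in Serpina3f, Serpina3g and Serpina3i, and the Serpina3n window holds no match. Of the 10 windows printed here and in the next paragraph, 4 were followed by 20 bases found in a GENCODE transcript of the gene. In 0 of them did the opposite strand match. For the rest this check did not bear out the start, so distances to it are uncertain. Of the members with a window, 4 of 6 that were higher held the letters (Serpinb6a is the other), against 0 of 2 that were lower and 1 of 20 that did not pass (Serpina11), and the other windows belong to members that were not tested. In Serpina3f, Serpina3g and Serpina3i the letters are followed by the same bases, atcaccc. The matches of these neighbouring paralogs are therefore not independent, and the counts of members draw no contrast between the groups. Both motifs searched were chosen with the results known. The letters occur in 1929 of 27025 windows of all genes, 7.14%. Such a match is a description of the sequence and not of binding. Identity over the 250 bases was 72.0% between Serpina3f and Serpina3i and between 48.8% and 69.2% in the other pairs of these genes. By the positions of the capitals the Serpina3g window is offset against those of Serpina3f and Serpina3i, which by itself lowers the identity counted.

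The 5 alpha-1-antitrypsin paralogs and Serpina7 are shown over 100 bases, on the minus strand, with capitals on GTTAAT, core letters of the site of the hepatocyte factor HNF1 (searched on both strands of the same 250-base windows, apart from the STAT letters). They are shown because the paralogs share these letters and were counted at unequal levels. Their windows are chr12:103863620-103863719, chr12:103738190-103738289, chr12:103904951-103905050, chr12:103773634-103773733 and chr12:103956898-103956997 in the order Serpina1a to Serpina1e, and chrX:139085237-139085336 for Serpina7.
Serpina1a: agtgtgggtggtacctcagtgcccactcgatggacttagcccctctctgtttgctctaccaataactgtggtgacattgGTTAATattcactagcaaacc
Serpina1b: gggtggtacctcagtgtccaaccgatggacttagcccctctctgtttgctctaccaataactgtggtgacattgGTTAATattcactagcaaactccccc
Serpina1c: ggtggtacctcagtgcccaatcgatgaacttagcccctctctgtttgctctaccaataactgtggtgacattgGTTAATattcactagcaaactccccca
Serpina1d: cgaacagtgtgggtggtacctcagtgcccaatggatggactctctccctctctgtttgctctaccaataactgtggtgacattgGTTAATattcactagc
Serpina1e: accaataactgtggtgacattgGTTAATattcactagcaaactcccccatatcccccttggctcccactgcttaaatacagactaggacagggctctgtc
Serpina7: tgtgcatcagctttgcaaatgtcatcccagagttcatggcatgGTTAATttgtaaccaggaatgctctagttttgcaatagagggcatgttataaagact
The letters stand in all 5 Serpina1 windows and in those of Serpina7, Serpina3c and Serpinb8, 8 of 32 members, and in 6.54% of the windows of all genes. Over 250 bases Serpina1a to Serpina1d were between 88% and 93.2% identical, and Serpina1e was between 72.4% and 77.6% identical to them. The letters begin 78 bases before the annotated start of Serpina1e and between 16 and 27 bases before those of the other 4, so the windows are offset against each other. Identity was counted over all 250 bases of a window, so this offset by itself lowers the values of Serpina1e. They do not measure divergence over the stretch that the windows share.

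Serpin transcripts took a smaller share of the reads in the 3 Jag1Ndr/Ndr libraries. The 42 genes held 1.44%, 1.30% and 1.30% of gene reads in Jag1Ndr/Ndr replicates 1, 2 and 3, and 1.597%, 1.599% and 1.600% in Jag1+/+ replicates 1, 2 and 3. No Jag1Ndr/Ndr library reached the lowest Jag1+/+ library in share of reads. On the TMM-scaled CPM used below the separation is lost, with sums of 16531, 10916 and 12115 CPM in Jag1Ndr/Ndr and 16226, 16772 and 16740.0 CPM in Jag1+/+ replicates 1, 2 and 3, so that Jag1Ndr/Ndr replicate 1 lay above Jag1+/+ replicate 1. The Wilson 95% interval in the shallowest, Jag1Ndr/Ndr replicate 1, ran from 1.43% to 1.442% (counting error only). The mean was 1.35 ± 0.0770% in Jag1Ndr/Ndr and 1.60 ± 0.00156% in Jag1+/+ livers (SD, n = 3 each), a description with no test. The 5 Serpina1 paralogs accounted for most of the gap, with 0.451 ± 0.0536% in Jag1Ndr/Ndr and 0.639 ± 0.0205% in Jag1+/+ livers. The 11 Serpina3 paralogs stood at 0.150 ± 0.0369% in Jag1Ndr/Ndr and 0.138 ± 0.00574% in Jag1+/+ livers, and these values overlapped between genotypes. Hepatocyte markers, given above, also held less in Jag1Ndr/Ndr livers, and their part in this was not tested.

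**Figure D1:**
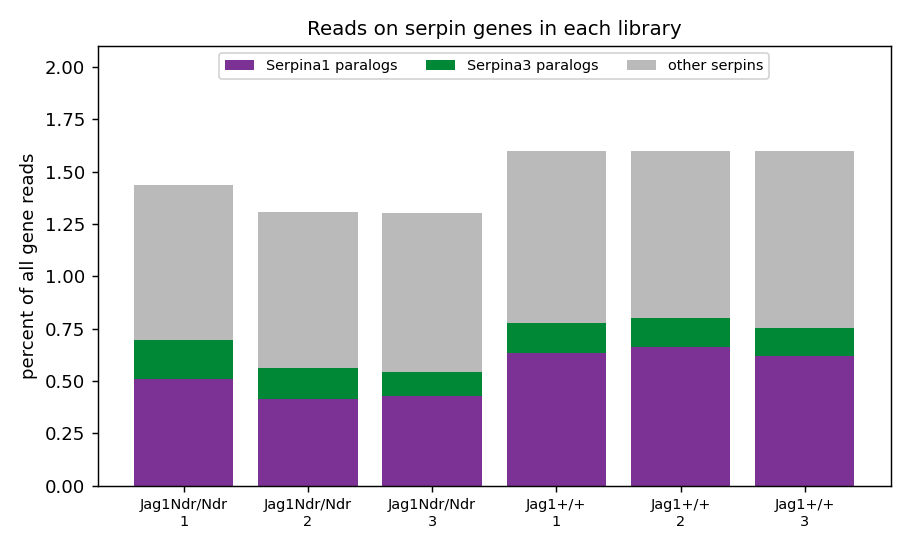
Percent of all gene reads on serpin genes in each library (stacked bars; Jag1Ndr/Ndr replicates 1 to 3, then Jag1+/+ replicates 1 to 3), split into Serpina1 paralogs, Serpina3 paralogs and the other serpins. The Jag1Ndr/Ndr bars reach 1.44%, 1.30% and 1.30% and the Jag1+/+ bars 1.597% to 1.600%.

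The comparison between genotypes asked which serpin transcripts differed. Of the 42 members, 37 passed the filter on low counts, 10 were higher and 3 were lower in Jag1Ndr/Ndr livers at an adjusted p under 0.05 (edgeR, quasi-likelihood, p-values adjusted by Benjamini and Hochberg over all 13819 genes). That is 27.0% and 8.11% of those tested, where over all genes 4.73% were higher and 2.90% lower, 7.63% in either direction. The filter can be passed through the genotype where a gene is high, so these shares describe the genes tested and no more. The median log2 fold change (Jag1Ndr/Ndr over Jag1+/+ throughout) was 0.27 over these 37 and 0.0041 over all genes. By clade, 5 of 21 tested genes of clade A rose and 2 fell, 3 of 7 of clade B rose and 1 fell, and Serping1 of clade G rose. None of the tested members of clades C, D, F, H and I passed. The libraries of the genotypes did not overlap in 22 of the 37, higher in 14 and lower in 8, where this held for 29.0% of all genes (14.8% higher and 14.3% lower).

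The number of higher members was 2, 2 and 4 without Jag1+/+ replicates 1, 2 and 3, and 6 without Jag1Ndr/Ndr replicate 3. Over all genes tested 653 were higher with every library. That number was 208, 155 and 181 without Jag1+/+ replicates 1, 2 and 3, and 557 without Jag1Ndr/Ndr replicate 3. The number of lower members was 1 without Jag1+/+ replicate 1, 8 without Jag1Ndr/Ndr replicate 1 and 8 by DESeq2. Over all genes it was 401 in the main test, and 134, 532 and 753 under these alternatives in the same order. Serpina3f kept its call under all 18 alternatives run. Serpina5 and Serpina6 each lost theirs under 1 of them. Serpina5 was run under 17, since a stricter filter on low counts left it out.

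**Figure D2:**
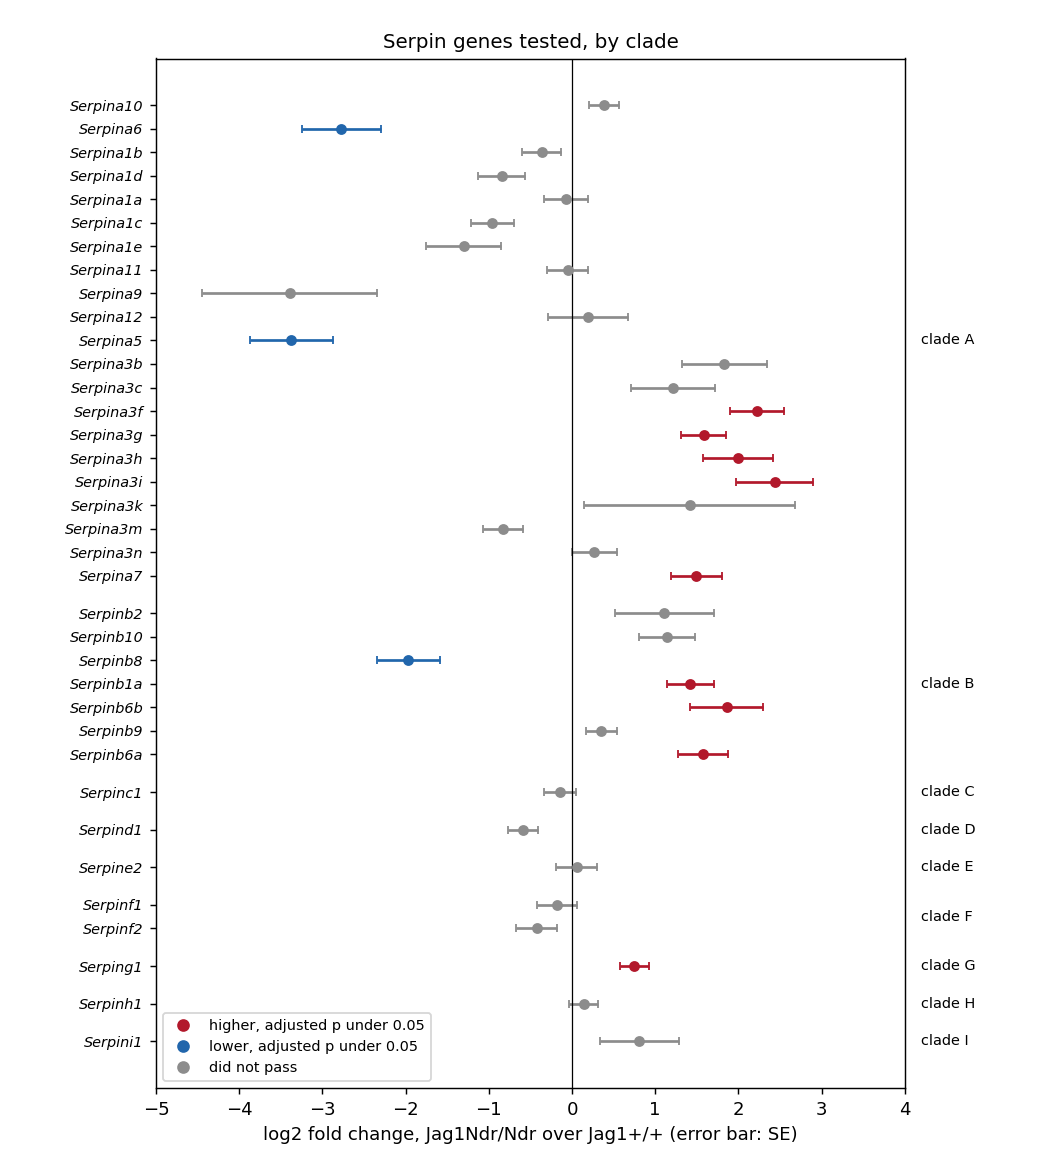
Log2 fold change of 36 tested serpin genes, Jag1Ndr/Ndr over Jag1+/+ (points; bars are SE), in genome order within each clade, with genes past the threshold in red (higher) or blue (lower). Serpina3f to Serpina3i lie together on the right, between 1.58 and 2.44, while Serpina6 and Serpina5 lie at -2.78 and -3.37.

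Of the 9 Serpina3 paralogs tested, 4 rose and none fell, where over all genes tested 4.73% were higher and 2.90% lower. Serpina3f, Serpina3g, Serpina3h and Serpina3i, which lie side by side on chromosome 12 (positions 104214544 to 104269509 of GRCm38), all rose. Serpina3f measured 31.1, 27.9 and 12.4 CPM in Jag1Ndr/Ndr and 4.69, 5.0 and 5.55 CPM in Jag1+/+ replicates 1, 2 and 3 (log2 fold change 2.22 ± 0.33 (SE), edgeR adjusted p = 0.00836). Its lowest Jag1Ndr/Ndr library, replicate 3, still lay above every Jag1+/+ library. Serpina3g, which inhibits cathepsins inside cells, measured 41.5, 37.9 and 19.8 CPM in Jag1Ndr/Ndr and 9.78, 11.6 and 11.7 CPM in Jag1+/+ replicates 1, 2 and 3 (log2 fold change 1.58 ± 0.27 (SE), edgeR adjusted p = 0.0132). The same libraries were high and low as for Serpina3f. Serpina3i measured 2.48, 2.61 and 1.33 CPM in Jag1Ndr/Ndr and 0.405, 0.195 and 0.568 CPM in Jag1+/+ livers, without overlap (log2 fold change 2.44 ± 0.46 (SE), edgeR adjusted p = 0.0190). Serpina3h, annotated as a transcribed pseudogene, measured 1.06, 1.5 and 1.17 CPM in Jag1Ndr/Ndr and 0.174, 0.260 and 0.465 CPM in Jag1+/+ livers, on 3 to 107 reads per library (log2 fold change 1.99 ± 0.42 (SE), edgeR adjusted p = 0.0267).

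These 4 paralogs resemble each other: between 10.6% (Serpina3f) and 21.9% (Serpina3h) of their distinct 50-base stretches occur in another gene, so their counts are not fully independent. Without Jag1+/+ replicates 1, 2 and 3 the edgeR adjusted p of Serpina3g was 0.0658, 0.0595 and 0.0564. That of Serpina3i was 0.0778 and 0.0784 without Jag1+/+ replicates 1 and 2. Serpina3h had 0.0731 without Jag1Ndr/Ndr replicate 2 and 0.0507 without replicate 3, 0.0961 without Jag1+/+ replicate 1 and 0.126 without replicate 2, 0.0769 in the fit with sex, and 0.0653 by limma on log2(RPKM + 1).

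Upstream in the cluster, Serpina3b measured 2.04, 0.799 and 0.853 CPM in Jag1Ndr/Ndr and 0.174, 0.357 and 0.387 CPM in Jag1+/+ livers. Its groups did not overlap, but it missed the threshold (log2 fold change 1.83 ± 0.51 (SE), edgeR adjusted p = 0.0671), and it passed with library totals, by DESeq2 and with sex as a covariate (adjusted p = 0.0485, 0.0267 and 0.0251). Serpina3c stood at 0.599 ± 0.173 CPM in Jag1Ndr/Ndr and 0.265 ± 0.138 CPM in Jag1+/+ livers (edgeR adjusted p = 0.203). Serpina3a and Serpina3j were not tested, with 16 and 18 reads in all.

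Serpina3n, an acute phase inhibitor of granzyme B and leukocyte elastase in mice, was the most abundant of the cluster. It measured 1628, 949 and 823 CPM in Jag1Ndr/Ndr and 922, 1003 and 898 CPM in Jag1+/+ replicates 1, 2 and 3. Replicate 1 of Jag1Ndr/Ndr stood above all other libraries and the remaining values overlapped (log2 fold change 0.27 ± 0.27 (SE), edgeR adjusted p = 0.636, and -0.094 without that library). Serpina3m measured 345, 249.6 and 185 CPM in Jag1Ndr/Ndr and 489.6, 439 and 452 CPM in Jag1+/+ livers. Its groups did not overlap, and it missed the threshold (log2 fold change -0.83 ± 0.24 (SE), edgeR adjusted p = 0.0761), which it passed by DESeq2 and without Jag1Ndr/Ndr replicate 1 (adjusted p = 0.0113 and 0.0192).

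Serpina3k, a kallikrein-binding serpin of the liver, varied more within Jag1Ndr/Ndr livers than between the genotypes. It measured 92.6, 1.04 and 5.01 CPM in Jag1Ndr/Ndr replicates 1, 2 and 3 and 12.7, 17.9 and 5.73 CPM in Jag1+/+ replicates 1, 2 and 3. Jag1Ndr/Ndr replicate 1 alone held the high value, and the other Jag1Ndr/Ndr libraries lay below all Jag1+/+ libraries. The log2 fold change of 1.41 ± 1.27 (SE, edgeR adjusted p = 0.587) was -2.12 without Jag1Ndr/Ndr replicate 1 (adjusted p = 0.132). Of its 50-base stretches 14.04% occur in another gene, most often Serpina3m.

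The alpha-1-antitrypsin paralogs, whose protein protects lung and other tissue from neutrophil elastase, were unequal. Per length, Serpina1b was the most abundant serpin in 5 of the 6 libraries, and it ranked 28, 30 and 31 among all gene entries by deposited RPKM in Jag1Ndr/Ndr and 24, 25 and 22 in Jag1+/+ replicates 1, 2 and 3. Serpina1c measured 744, 370.2 and 575 CPM in Jag1Ndr/Ndr and 1134, 1024 and 1122 CPM in Jag1+/+ livers. Its groups did not overlap, and it missed the threshold narrowly (log2 fold change -0.96 ± 0.26 (SE), edgeR adjusted p = 0.0629). Serpina1d measured 986, 461 and 797 CPM in Jag1Ndr/Ndr and 1238, 1287 and 1500.2 CPM in Jag1+/+ livers, again without overlap (log2 fold change -0.84 ± 0.28 (SE), edgeR adjusted p = 0.115). Serpina1c and Serpina1d passed by DESeq2 (adjusted p = 0.00465 and 0.0275) and without Jag1Ndr/Ndr replicate 1 (0.02497 and 0.0499).

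Serpina1e measured 306, 340.1 and 197 CPM in Jag1Ndr/Ndr and 535, 1210.2 and 334 CPM in Jag1+/+ replicates 1, 2 and 3. Jag1+/+ replicate 2 stood far above the rest and replicate 3 fell among the Jag1Ndr/Ndr libraries (log2 fold change -1.30 ± 0.45 (SE), edgeR adjusted p = 0.123). It passed by DESeq2 (adjusted p = 0.0163) and with the replicate number as a block (0.0412). Serpina1b measured 2833, 1734 and 1822 CPM in Jag1Ndr/Ndr and 2710.0, 2674 and 2834 CPM in Jag1+/+ livers. Serpina1a measured 1025, 541 and 602 CPM in Jag1Ndr/Ndr and 835, 737 and 702 CPM in Jag1+/+ livers. In both genes Jag1Ndr/Ndr replicate 1 lay with or above the Jag1+/+ libraries and the other replicates below them (edgeR adjusted p = 0.425 for Serpina1b and 0.918 for Serpina1a).

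Counts of the 5 Serpina1 paralogs are uncertain, since between 29.5% (Serpina1b) and 74.2% (Serpina1c) of their distinct 50-base stretches occur in another gene, and the sources used here do not give how the authors assigned such reads. Mouse strains are known to differ in their Serpina1 copies, the background here was mixed, and its part in these values was not tested. Summed over the 5 paralogs, the level was 5895, 3446 and 3994 CPM in Jag1Ndr/Ndr and 6452, 6932 and 6491 CPM in Jag1+/+ livers. These sums do not depend on how reads were split among the 5 paralogs. Reads that were dropped, or counted for a gene outside the 5, are not covered. Gm8893 is such a gene and shares stretches with Serpina1a and Serpina1c. The sums did not overlap between genotypes.

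The hormone carriers moved in opposite directions. Serpina6, corticosteroid-binding globulin, which carries glucocorticoids in plasma, fell 6.85-fold. It measured 88.1, 46.9 and 168 CPM in Jag1Ndr/Ndr and 730.0, 441 and 903 CPM in Jag1+/+ replicates 1, 2 and 3, with no overlap (log2 fold change -2.78 ± 0.47 (SE), edgeR adjusted p = 0.0130). By RPKM it ranked 919, 1373 and 356 among all entries in Jag1Ndr/Ndr and 82, 147 and 64 in Jag1+/+ livers. Without Jag1+/+ replicate 1 its adjusted p was 0.0541 and its log2 fold change -2.74. The gene lies on chromosome 12 (positions 103646630 to 103657218 of GRCm38), and none of its 50-base stretches occurs in another gene.

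Serpina7, thyroxine-binding globulin, which carries thyroid hormone, rose 2.82-fold. It measured 269, 131 and 181 CPM in Jag1Ndr/Ndr and 70.9, 86.2 and 48.4 CPM in Jag1+/+ replicates 1, 2 and 3, without overlap (log2 fold change 1.5 ± 0.31 (SE), edgeR adjusted p = 0.0249). The gene is on chromosome X (positions 139079249 to 139085236 of GRCm38), and with sex as a covariate it passed (log2 fold change 1.57, adjusted p = 0.0391). The highest library, Jag1Ndr/Ndr replicate 1, was male. Without Jag1+/+ replicates 1, 2 and 3 its edgeR adjusted p was 0.0941, 0.0614 and 0.103.

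**Figure D3:**
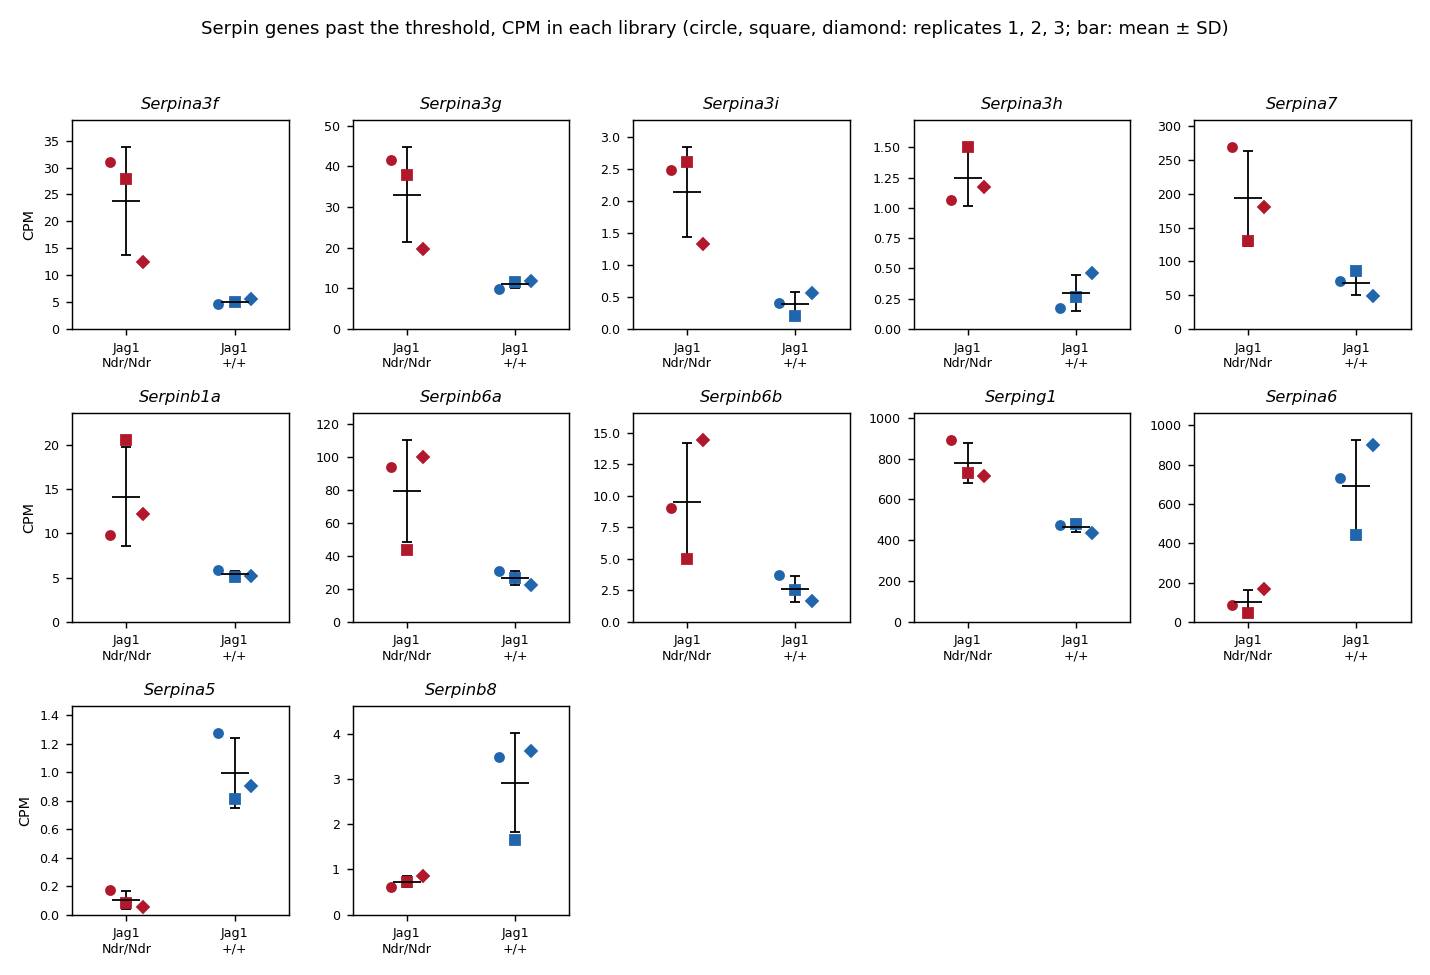
CPM in each library for 12 serpin genes past the threshold (red, Jag1Ndr/Ndr; blue, Jag1+/+; circle, square and diamond are replicates 1, 2 and 3; bars are mean ± SD, n = 3). In each panel the libraries of the genotypes are apart, higher in Jag1Ndr/Ndr for the 9 from Serpina3f to Serping1 and lower for Serpina6, Serpina5 and Serpinb8.

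Serpina5, the protein C inhibitor, was scarce and fell, with 2, 6 and 1 reads in Jag1Ndr/Ndr and 22, 25 and 35 reads in Jag1+/+ replicates 1, 2 and 3. These are 0.177, 0.0841 and 0.0533 CPM in Jag1Ndr/Ndr and 1.27, 0.811 and 0.904 CPM in Jag1+/+ livers (log2 fold change -3.37 ± 0.50 (SE), edgeR adjusted p = 0.00836). Every Jag1+/+ library was above every Jag1Ndr/Ndr library, although the deepest was of Jag1Ndr/Ndr. On log2 of the deposited RPKM plus 1, a constant far above this level, its log2 fold change was -0.45 (limma adjusted p = 0.0536). Serpina9, known in humans from germinal centre B cells, had 0, 0 and 5 reads in Jag1Ndr/Ndr and 10, 16 and 34 reads in Jag1+/+ livers and missed the threshold (edgeR adjusted p = 0.0940). It passed without Jag1Ndr/Ndr replicate 3, whose 5 reads were the only ones of that genotype (adjusted p = 0.0176). The B cell marker gene Cd79a averaged 6.30 ± 3.48 CPM in Jag1Ndr/Ndr and 13.9 ± 3.97 CPM in Jag1+/+ livers (edgeR adjusted p = 0.165), and of the whole lymphocyte and killer cell list edgeR and DESeq2 each called 0 of 11 tested genes (3 had an unadjusted edgeR p under 0.05; sums of 30.8 to 49.5 CPM in Jag1Ndr/Ndr and 40.6 to 52.4 CPM in Jag1+/+ livers, none at 0). Their part in the Serpina9 counts was not tested.

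The other clade A members of the cluster did not pass. Serpina10, which inhibits factor Xa with protein Z, measured 234, 160.3 and 199.9 CPM in Jag1Ndr/Ndr and 146, 148 and 160.5 CPM in Jag1+/+ livers, with Jag1Ndr/Ndr replicate 2 just below Jag1+/+ replicate 3 (edgeR adjusted p = 0.260). Serpina11 measured 239, 171 and 126 CPM in Jag1Ndr/Ndr and 173, 218 and 165 CPM in Jag1+/+ livers, with mixed groups (edgeR adjusted p = 0.934). Of its 50-base stretches 35.7% also lie in the annotated gene Gm28577. Serpina12, vaspin, had 73 reads in all (edgeR adjusted p = 0.865), and the pseudogene Serpina4-ps1 had 19 and was not tested.

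Among the clade B genes, which act mostly inside cells, 3 of 7 tested rose in Jag1Ndr/Ndr livers, 1 fell and 3 did not pass. Over all genes tested 4.73% were higher and 2.90% lower. Serpinb6a, an inhibitor of cathepsin G-like proteases, was the most abundant of the clade B genes. It measured 94.0, 43.7 and 99.9 CPM in Jag1Ndr/Ndr and 30.6, 26.6 and 22.6 CPM in Jag1+/+ replicates 1, 2 and 3, without overlap (log2 fold change 1.57 ± 0.30 (SE), edgeR adjusted p = 0.0198). On chromosome 13 it overlaps Ripk1, Nqo2 and 1110046J04Rik, whose reads cannot be told apart from its own where they share bases, because the kit does not mark the strand. Serpinb1a, an inhibitor of neutrophil elastase and proteinase 3, measured 9.84, 20.6 and 12.2 CPM in Jag1Ndr/Ndr and 5.85, 5.06 and 5.19 CPM in Jag1+/+ livers (log2 fold change 1.42 ± 0.28 (SE), edgeR adjusted p = 0.0226). Jag1Ndr/Ndr replicate 2 was the highest. Serpinb6b measured 9.04, 4.95 and 14.4 CPM in Jag1Ndr/Ndr and 3.70, 2.50 and 1.68 CPM in Jag1+/+ livers, again apart (log2 fold change 1.86 ± 0.44 (SE), edgeR adjusted p = 0.0404).

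The neutrophil marker sum was likewise highest in Jag1Ndr/Ndr replicate 2, at 1083, 2411 and 1537 CPM in Jag1Ndr/Ndr replicates 1, 2 and 3 and 758, 637 and 626 CPM in Jag1+/+ replicates 1, 2 and 3. Serpinb6a and Serpinb6b were by contrast lowest in that Jag1Ndr/Ndr library. The macrophage sum was 2178, 1391 and 1261 CPM in Jag1Ndr/Ndr and 1020.1, 905 and 600.4 CPM in Jag1+/+ livers. The part of these cells in the clade B values was not tested. Without Jag1+/+ replicates 1, 2 and 3 the edgeR adjusted p was 0.0666, 0.0877 and 0.0907 for Serpinb6a, 0.0787, 0.0956 and 0.0899 for Serpinb1a, and 0.0725, 0.138 and 0.143 for Serpinb6b. Serpinb6a also missed the threshold without Jag1Ndr/Ndr replicate 3 (0.0514), and Serpinb6b without Jag1Ndr/Ndr replicate 1 (0.0671) or 3 (0.0961). In the fit with sex Serpinb1a and Serpinb6b had 0.0645 and 0.0869. By limma on log2 RPKM Serpinb1a had an adjusted p of 0.133 with a pseudocount of 1 and of 0.101 with 0.1.

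Serpinb8, which inhibits furin in humans, was the member of clade B that fell. It measured 0.620, 0.729 and 0.853 CPM in Jag1Ndr/Ndr and 3.47, 1.65 and 3.62 CPM in Jag1+/+ replicates 1, 2 and 3, without overlap (log2 fold change -1.97 ± 0.38 (SE), edgeR adjusted p = 0.0207). It missed the threshold without Jag1Ndr/Ndr replicate 2 (0.0503) and without Jag1+/+ replicate 1 (0.0798) or 3 (0.0907). It also missed it with quality weights (log2 fold change -1.60, adjusted p = 0.101) and by limma on log2 RPKM with pseudocounts of 1 (0.106) and 0.1 (0.129). Serpinb9, the granzyme B inhibitor of cytotoxic lymphocytes, measured 10.8, 11.9 and 14.2 CPM in Jag1Ndr/Ndr and 10.5, 10.2 and 8.32 CPM in Jag1+/+ livers, apart by little (edgeR adjusted p = 0.321). Serpinb10 measured 1.42, 2.26 and 1.81 CPM in Jag1Ndr/Ndr and 0.984, 0.973 and 0.620 CPM in Jag1+/+ livers, apart but not past the threshold (log2 fold change 1.14 ± 0.34 (SE), edgeR adjusted p = 0.0820). Serpinb2, plasminogen activator inhibitor 2, averaged 0.851 ± 0.496 CPM in Jag1Ndr/Ndr and 0.433 ± 0.268 CPM in Jag1+/+ livers (edgeR adjusted p = 0.323). Serpinb9b was not tested, with 7, 11 and 1 reads in Jag1Ndr/Ndr and 1 read in each Jag1+/+ library, a ratio of rates of 5.42 with an exact 95% interval of 1.60 to 28.6 (counting error only).

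The plasma serpins that restrain coagulation, fibrinolysis and complement were abundant, and only Serping1 among them passed. Serping1, the C1 inhibitor, which restrains complement and contact activation, rose 1.68-fold. It measured 890.5, 729 and 716 CPM in Jag1Ndr/Ndr and 473, 480.2 and 436 CPM in Jag1+/+ replicates 1, 2 and 3, far apart (log2 fold change 0.75 ± 0.18 (SE), edgeR adjusted p = 0.0409). Without Jag1+/+ replicates 1, 2 and 3 its edgeR adjusted p was 0.138, 0.177 and 0.217. It was 0.0599 without Jag1Ndr/Ndr replicate 3, 0.0642 with sex as a covariate and 0.0514 with the replicate number as a block.

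Serpind1, heparin cofactor II, an inhibitor of thrombin, measured 888, 753 and 748 CPM in Jag1Ndr/Ndr and 1186, 1179 and 1230.0 CPM in Jag1+/+ livers. The groups stood apart, but the gene missed the threshold (log2 fold change -0.59 ± 0.17 (SE), edgeR adjusted p = 0.0821). It passed by DESeq2, with quality weights and without Jag1Ndr/Ndr replicate 1 (adjusted p = 0.00257, 0.0225 and 0.0362). Serpinc1, antithrombin, the main inhibitor of thrombin and factor Xa, measured 2792, 2235 and 2777 CPM in Jag1Ndr/Ndr and 2704, 2821 and 3099 CPM in Jag1+/+ livers, overlapping (log2 fold change -0.14 ± 0.19 (SE), edgeR adjusted p = 0.732). Serpinf2, the plasmin inhibitor alpha-2-antiplasmin, measured 1976, 1254 and 1122 CPM in Jag1Ndr/Ndr and 1883, 2064 and 1889 CPM in Jag1+/+ livers (edgeR adjusted p = 0.366). Jag1Ndr/Ndr replicate 1 lay among the Jag1+/+ libraries and the other replicates below them, and without it the gene passed (log2 fold change -0.72, edgeR adjusted p = 0.0387).

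In clade E, Serpine2, protease nexin-1, which inhibits thrombin and urokinase at cell surfaces, measured 3.37, 4.33 and 4.1 CPM in Jag1Ndr/Ndr and 4.75, 3.21 and 3.54 CPM in Jag1+/+ livers, with overlapping groups (edgeR adjusted p = 0.930). Serpine3 was not tested, with 5 reads over the Jag1Ndr/Ndr and 6 over the Jag1+/+ libraries.

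Serpinf1, pigment epithelium-derived factor, which does not inhibit proteases and acts against vessel growth, measured 891, 495 and 781 CPM in Jag1Ndr/Ndr and 825, 805 and 826 CPM in Jag1+/+ livers. Its Jag1+/+ values were close together and lay within the range of the Jag1Ndr/Ndr values (edgeR adjusted p = 0.721). Serpinh1, the collagen chaperone Hsp47 of the endoplasmic reticulum, measured 62.0, 87.5 and 67.2 CPM in Jag1Ndr/Ndr and 75.0, 61.9 and 60.4 CPM in Jag1+/+ livers (edgeR adjusted p = 0.718). Serpini1, neuroserpin, measured 0.532, 0.940 and 0.800 CPM in Jag1Ndr/Ndr and 0.810, 0.325 and 0.310 CPM in Jag1+/+ livers (edgeR adjusted p = 0.371). Both sets of values overlapped between the genotypes.

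**Figure D4:**
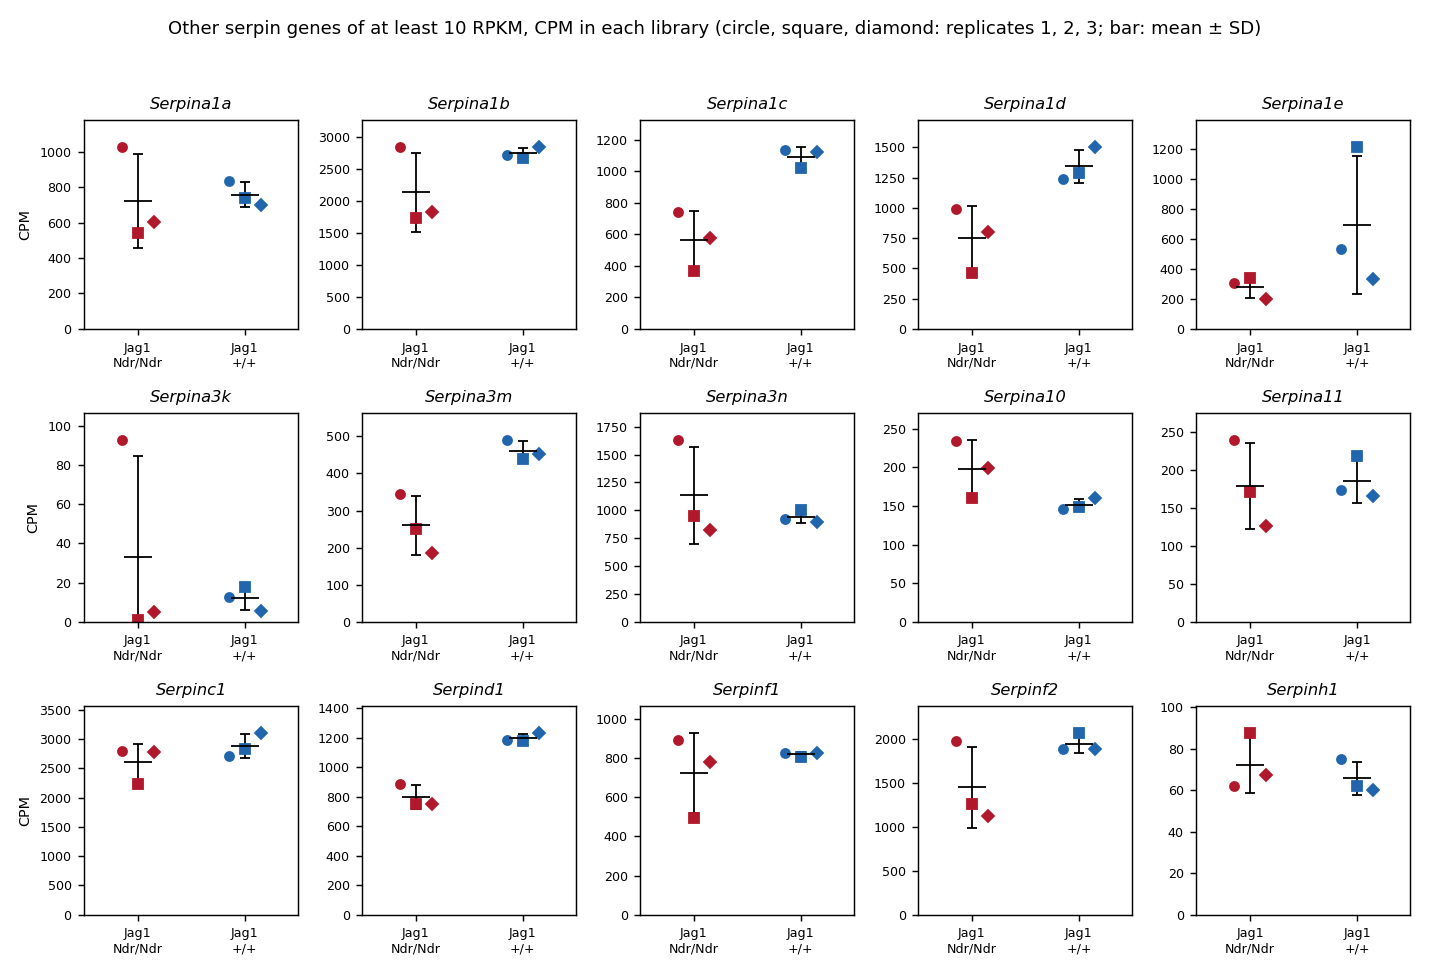
CPM in each library for the 15 other serpin genes with at least 10 RPKM in either genotype (red, Jag1Ndr/Ndr; blue, Jag1+/+; circle, square and diamond are replicates 1, 2 and 3; bars are mean ± SD, n = 3, drawn from 0 up). Serpina1c, Serpina1d, Serpina3m and Serpind1 lie apart between genotypes without passing the test, and Jag1Ndr/Ndr replicate 1 alone is high for Serpina3k.

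The proteases that serpins inhibit and the regulators of serpin genes were counted by list, where 4.73% of all genes tested were higher and 2.90% lower. In the list of leukocyte and lysosomal proteases 3 of 12 tested genes rose and none fell, namely elastase (Elane), proteinase 3 (Prtn3) and cathepsin G (Ctsg), all of them neutrophil granule proteases. Elane averaged 27.7 ± 14.5 CPM in Jag1Ndr/Ndr and 8.66 ± 1.58 CPM in Jag1+/+ livers (SD, n = 3 each; log2 fold change 1.69 ± 0.35 (SE), edgeR adjusted p = 0.0249). Prtn3 rose 4.12-fold and Ctsg 3.88-fold (edgeR adjusted p = 0.0253 and 0.0263). Of the 12 proteases of coagulation and fibrinolysis 1 fell and none rose, near the 7.63% of all genes called in either direction. Factor XI (F11) averaged 112 ± 30.5 CPM in Jag1Ndr/Ndr and 203 ± 10.8 CPM in Jag1+/+ livers (edgeR adjusted p = 0.0480). Of the 5 complement proteases Masp2, of the lectin pathway, fell 1.68-fold (edgeR adjusted p = 0.0235), and C1ra and C1s1, the targets of Serping1, did not pass (0.716 and 0.951). Of 6 epithelial proteases Tmprss2 rose 2.60-fold (edgeR adjusted p = 0.0351).

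Among regulators of acute phase serpins 3 of 12 tested genes rose and none fell, against 4.73% higher over all genes. Socs3, the feedback inhibitor of STAT3 signalling, averaged 26.8 ± 3.45 CPM in Jag1Ndr/Ndr and 5.95 ± 1.46 CPM in Jag1+/+ livers (edgeR adjusted p = 0.00240). Cebpd, an acute phase transcription factor, rose 2.76-fold and Osmr, the oncostatin M receptor, 2.29-fold (edgeR adjusted p = 0.00960 and 0.0316). Of 13 hepatocyte transcription factors 1 fell, near the share over all genes (2.90% lower, 7.63% either way), namely Stat5b, a mediator of growth hormone, which averaged 56.8 ± 7.19 CPM in Jag1Ndr/Ndr and 97.7 ± 13.99 CPM in Jag1+/+ livers (edgeR adjusted p = 0.0318). Of 13 genes of serpin folding and collagen maturation edgeR and DESeq2 each called 0, and 3 had an unadjusted edgeR p under 0.05. Of 19 other protease inhibitors tested 3 rose (Slpi, Spink3 and Stfa1) and 2 fell (Mug1 and Wfdc2), where 4.73% of all genes rose and 2.90% fell. Angiotensinogen (Agt), a serpin by structure whose symbol falls outside the family name, averaged 2080.4 ± 896 CPM in Jag1Ndr/Ndr and 2001 ± 139 CPM in Jag1+/+ livers (edgeR adjusted p = 0.943).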

How the data were processed

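Polyadenylated RNA of mouse liver was sequenced in 6 libraries, 3 Jag1Ndr/Ndr and 3 Jag1+/+. The library kit does not mark the strand, per the labels' protocols. The authors deposited whole read counts per RefSeq gene entry, not normalized, with 1 column per library. They also deposited RPKM, which per the file headers carry TMM factors; dividing these out gave values proportional to reads within 5% for 98.0% of values over 11559 genes. STAR and mm10 are named in the submitters' processing notes, and the sources used here do not give how reads were counted. RPKM served for ranks within a library, for the naming rule and for limma as an alternative.

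Counts were tested with edgeR 4.0.16 (R 4.3.3; TMM scaling, filterByExpr, quasi-likelihood test, Benjamini-Hochberg over all genes tested, adjusted p under 0.05), with 93 spike-in and eGFP entries (5 reads) left out. The SE was taken as the fold change on the log2 scale divided by the root of the F statistic. CPM are counts relative to the TMM-scaled library size. DESeq2 1.42.0 and limma 3.58.1 were alternatives, with other scalings and filters, sex or replicate number as a term, and each library left out. The test was checked on simulated counts. Coordinates are of GRCm38, and promoter windows come from RefSeq GRCm38.p6. The distinct 50-base stretches of each gene were compared with the transcripts of the other genes. Values are given per library for members past the threshold, with at least 10 RPKM in either genotype, or alone in their clade, and for others by the most reads; Serpina3b, Serpina9, Serpinb9b and Serpinb10 were added after their values were seen. The members and lists were chosen with earlier results of these data known. In all, 1 member past the threshold and 1 marker gene are counted but not reported here.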

Additional observations from a re-analysis of the deposited data

How the results depend on the processing

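Of 653 pairs of a tested serpin gene and an alternative (18 alternatives), 558 kept the direction and the side of the threshold, 44 lost the call, 24 gained one and 27 changed direction. The number of higher genes, 10, was between 2 and 9 with 1 library left out. It was 7 with sex as a covariate and 11 by DESeq2. Over all genes tested the number higher, 653, was between 155 and 679 with 1 library left out, 366 with sex and 1137 by DESeq2. The number of lower serpin genes, 3, was between 1 and 8 with 1 library left out and 8 by DESeq2. It was 6 with quality weights and 1 by limma on log2(RPKM + 1). Over all genes tested the number lower, 401, was between 127 and 532 with 1 library left out and 753 by DESeq2. With quality weights it was 644 and by limma on log2(RPKM + 1) 101. The serpin share of reads was 1.48% in Jag1Ndr/Ndr and 1.81% in Jag1+/+ livers by deposited RPKM, and 0.746% and 0.822% in the same order without the Serpina1 and Serpina3 paralogs. With 1 library left out it was between 1.30% and 1.37% in Jag1Ndr/Ndr and between 1.598% and 1.600% in Jag1+/+ livers. With the replicate number as a block 9 serpin genes were higher and 6 lower, and over all genes 843 were higher and 587 lower. Same-numbered libraries correlated at 0.0856, 0.170 and 0.195 in their deviations from the genotype means, not all over 0.1, so the numbers were not taken as pairs, although each library correlated best with its own number.

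The genes that changed direction had failed the test, and the cause was not tested. Serpina1a had a log2 fold change of 0.12 by limma with a pseudocount of 1 and of 0.1, and of 0.11, 0.055 and 0.0024 without Jag1Ndr/Ndr replicates 2 and 3 and Jag1+/+ replicate 1. Serpina11 had 0.032 with library totals, 0.051 with sex, 0.15 by limma with either pseudocount, 0.15 without Jag1Ndr/Ndr replicate 3 and 0.077 without Jag1+/+ replicate 2. Serpina3k had -0.32 with the block, -0.0077 and -0.20 by limma with pseudocounts of 1 and 0.1, -1.77 with quality weights and -2.12 without Jag1Ndr/Ndr replicate 1. Serpina3n had -0.094 without that library, and Serpinc1 0.093 by limma. Serpine2 had -0.090 with sex, and -0.017, -0.067 and -0.0056 without Jag1Ndr/Ndr replicate 2 and Jag1+/+ replicates 2 and 3. Serpinf1 had 0.017 by limma and 0.035 without Jag1Ndr/Ndr replicate 2, and Serpinh1 -0.020 without that library. With 1 library left out the range reached -0.41 for Serpina1a, 2.02 for Serpina3k, 0.46 for Serpina3n, 0.23 for Serpine2, -0.37 for Serpinf1 and 0.24 for Serpinh1. The median over all genes moved to 0.13 with library totals and to 0.18 and 0.22 by limma. Depth limits Serpina5, Serpina9 and the genes not tested.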
